A study of Mus musculus with 8 samples.

Results

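The proteasome genes described here are the 50 mouse genes, of 21608 named on the arrays, whose symbol is Psm followed by a letter from a to g and a number. They were found by matching the accession of each probe to a gene symbol, and they were grouped by that letter. Psma and Psmb genes encode the core, and Psmc and most Psmd genes the cap. Psme genes encode the activators, Psmf1 an inhibitor and Psmg genes the chaperones that assemble the core. Psmb8, Psmb9 and Psmb10 were set apart as the immunoproteasome. The pattern also takes Psmc3ip, which acts in meiotic recombination, and Psme3ip1, which encodes a protein that binds the activator Psme3, and neither is a subunit.

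The proteasome is the protease that degrades proteins marked with ubiquitin in the cytosol and nucleus. Its core is a barrel of stacked rings, in which outer alpha subunits gate the entrance and inner beta subunits carry the cutting sites. The cap binds ubiquitinated proteins, removes the ubiquitin and unfolds the proteins with a ring of ATPases. Interferon replaces the catalytic subunits Psmb5, Psmb6 and Psmb7 by Psmb8, Psmb9 and Psmb10, which changes the peptides cut for antigen presentation. When proteasome activity is low, the transcription factor Nfe2l1 raises most subunit genes together through antioxidant response elements.

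Gene expression was measured on 8 one-color Agilent arrays in AML12, a mouse hepatocyte cell line. The 4 irisin samples were cultured for 24 h with 0.5 µg/ml irisin, the peptide cleaved from Fndc5, and the 4 control samples were cultured for 24 h without it, all in DMEM F-12 medium with fetal bovine serum and no other treatment. Nothing says that the 4 samples of a group came from separate cultures, so that the p-values measure the spread between these samples only. AML12 is a single established line, and the arrays measure RNA, not protein or protease activity. The question for these genes is whether irisin treatment altered the RNA of the proteasome, and of which of its pieces.

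Signals were put on the log2 scale after division by the 75th percentile of the array, and every level below is on this scale unless said otherwise. A change is the irisin mean minus the control mean. The 75th percentile itself was 372 to 534 on the control arrays and 682 to 850 on the irisin arrays, so that the unscaled signal of all 48 tested genes was higher with irisin, by a ratio between 1.30 and 2.28. Each group had a slide and a scan of its own, so that an effect of treatment and one of slide or scan cannot be told apart. All 10 hepatocyte markers were tested, with a median change of -0.10. Their summed unscaled signal was 191093 to 247776 on the control arrays and 299219 to 323410 on the irisin arrays. Of the 5 leukocyte markers, Ptprc, Cd79a and Lyz2 stayed near background on all 8 arrays, as did the 4 stellate cell markers, while Cd3e (change of -0.51) and Itgam (change of -0.43) were tested. Of the 4 Kupffer cell markers Cd68 (change of 0.01) and Marco (-1.21) were tested, and Marco was down-regulated. Of the 4 endothelial markers Pecam1 (-0.61), also down-regulated, and Kdr (-0.56) were tested. Among all tested genes 10.2% were down-regulated. Marco and Pecam1 were dim, with mean unscaled signals of 11.5 and 21.6 in control and of 8.11 and 23.5 with irisin. The hepatocyte markers Apoa2 (-0.42), Trf (-0.39) and Krt18 (-0.47) were lower at an adjusted p under 0.05, as were 17.9% of all tested genes. Alb (0.11) and Apob (0.24) had changes above 0, and the other hepatocyte markers had changes below it. Of the 4 cholangiocyte markers 3 were tested, with changes from -0.08 to -0.03. The summed unscaled signal was 772 to 1001 in control and 946 to 1234 in irisin arrays for the leukocyte markers. It was 106 to 196 and 229 to 258 for the Kupffer cell markers, and 280 to 415 and 328 to 469 for the endothelial markers. What these signals stand for in this single line was not tested.

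No proteasome gene was up-regulated or down-regulated by irisin treatment at the thresholds of the study, a change of at least 1.5-fold and an adjusted p-value under 0.05. Of the 50 genes, 48 had a probe that passed the background filter in at least 1 group and were tested with limma. Among all 14307 tested genes, the up-regulated share was 0.531% and the down-regulated share 10.2%. The testis core subunit Psma8 and the thymus core subunit Psmb11 did not pass it on any of the 8 arrays, with signals of 0.846 to 0.954 and of 1.13 to 3.25. The changes of the 48 genes ran from -0.36 for Psmb3 to 0.45 for Psmd14, with a median of -0.09 beside -0.06 for all tested genes. At an unadjusted p under 0.05, 2 genes were higher and 14 were lower with irisin, beside 5.94% and 23.6% of all tested genes. The methods' ANOVA with Benjamini-Hochberg correction called 0 genes at the same thresholds.

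The changes had small standard errors, which measure the spread between the arrays of a group and not a difference between the slides. The median standard error of a change was 0.09, and the 95% interval of the change lay inside 1.5-fold in both directions for 45 of 48 genes (93.8%), beside 75.2% of all tested genes. The exceptions were Psmb3, Psmd14 and the nuclear activator Psme4. These intervals hold for values scaled to the 75th percentile. With either quantile normalization or cyclic loess 45 intervals lay inside again, and with scaling to the 8 spike-in probes or without scaling 0 did.

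**Figure D1:**
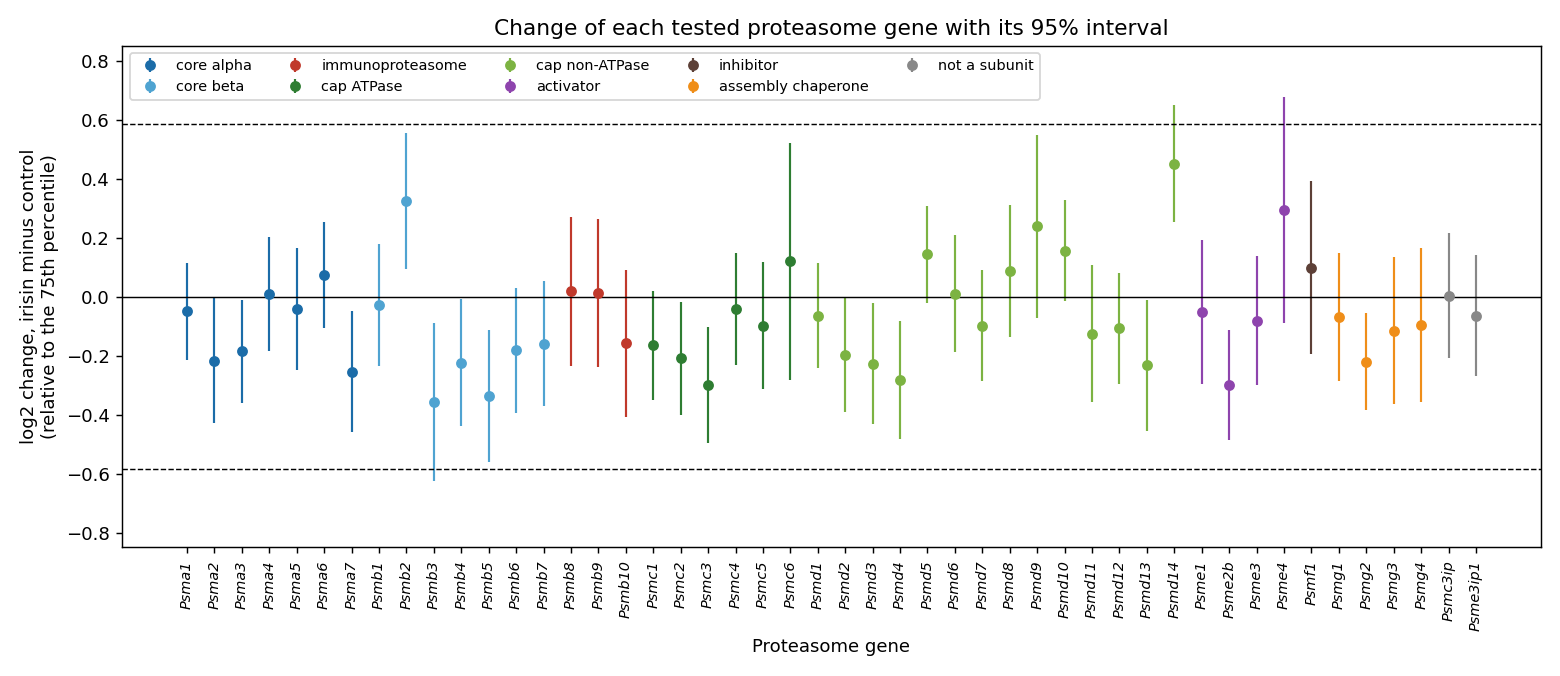
Log2 change (irisin minus control, relative to the 75th percentile) of the 48 tested proteasome genes, ordered and colored by role, with the 95% interval from limma as a line and the 1.5-fold threshold dashed. All 48 points lie between the dashed lines, and the intervals of Psmb3, Psmd14 and Psme4 cross one of them.

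Of the immunoproteasome subunits, Psmb8 and Psmb9 had nearly the same mean level in both groups and Psmb10 a lower mean with irisin that did not pass the test. Psmb8, the interferon-induced counterpart of Psmb5, had levels of -1.16, -1.20, -0.91 and -0.85 on the control arrays and of -1.10, -0.89, -1.20 and -0.87 on the irisin arrays. The groups overlapped over nearly their whole range, and the change was 0.02 (95% interval -0.23 to 0.27, adjusted p = 0.936 from limma). Psmb9, the counterpart of Psmb6, had levels of -0.88, -1.01, -0.83 and -0.67 in control and of -0.89, -0.66, -1.08 and -0.70 with irisin. Its change was 0.01 (95% interval -0.24 to 0.26, adjusted p = 0.955 from limma), and again the groups overlapped. Psmb10, the counterpart of Psmb7, had levels of 4.27, 4.06, 4.30 and 4.37 in control and of 3.89, 4.29, 3.97 and 4.22 with irisin. Irisin replicates 1 and 3 lay below all control arrays and the other irisin arrays lay among them, with a change of -0.16 (95% interval -0.41 to 0.09, adjusted p = 0.374 from limma).

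The partners of the immunoproteasome in antigen presentation were looked at beside it. Tap1 and Tap2 carry peptides into the endoplasmic reticulum, Tapbp and Calr load them, B2m is the light chain of the presenting molecule, and Nlrc5 and Irf1 are transcription factors of these genes. All 10 genes of this list were tested, 0 were called and 0 had an adjusted p under 0.05 from limma, with 1 higher and 1 lower at an unadjusted p under 0.05, beside 5.94% and 23.6% of all tested genes (0.531% and 10.2% called). Their median change was 0.06, from -0.25 for the chaperone Calr to 0.23 for the disulfide isomerase Pdia3. The change of the transporter Tap1 was 0.03 (95% interval -0.26 to 0.33). Its probe was dim, with a mean unscaled signal of 13.5 in control and 22.4 with irisin.

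The catalytic subunits of the standard core had changes under 0 in this scaling, and the change of Psmb5 alone among them had an adjusted p under 0.05. Psmb5, which carries the chymotrypsin-like site, had levels of 6.84, 6.67, 6.62 and 6.70 on the control arrays and of 6.32, 6.60, 6.20 and 6.37 on the irisin arrays. Every irisin array lay below every control array, by little for irisin replicate 2, and the change was -0.34 ± 0.10 (SE, adjusted p = 0.0335 from limma), short of 1.5-fold. Its second, dimmer probe had a change of -0.22. Psmb6, which carries the caspase-like site, had levels of 6.19, 6.07, 6.18 and 6.20 in control and of 5.86, 6.18, 5.83 and 6.04 with irisin. Irisin replicate 2 lay among the control arrays, and the change was -0.18 (95% interval -0.39 to 0.03). Psmb7, which carries the trypsin-like site, had levels from 2.94 to 3.16 in control and from 2.70 to 3.04 with irisin, with a change of -0.16 (95% interval -0.37 to 0.05) and overlapping groups.

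The exchange of catalytic subunits was read as the log2 ratio of the immunoproteasome subunit to its counterpart on the same array, which no scaling of a whole array can move. The ratio of Psmb8 to Psmb5 was higher with irisin by 0.35, and the groups did not overlap (two-sided exact permutation test, p = 0.0286, the lowest value possible with 4 arrays in each group). Adjusted over the 3 pairs this p was 0.0857, and it does not pass. A pair that reaches the lowest p alone cannot pass this adjustment, so the test does not decide. For Psmb9 to Psmb6 the difference was 0.19 (exact permutation test, p = 0.0571, adjusted 0.0857), and for Psmb10 to Psmb7 it was 0.00 (0.00188, exact permutation test, p = 1). These differences moved with normalization by signal level. With cyclic loess they were 0.06, -0.07 and 0.07, and with quantile normalization -0.01, -0.11 and 0.06. Without control replicate 4 the differences for Psmb8 to Psmb5 (0.42) and for Psmb9 to Psmb6 (0.24) had an adjusted p of 0.0429 in the exact permutation test. Both pairs then had the lowest p possible before adjustment.

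**Figure D2:**
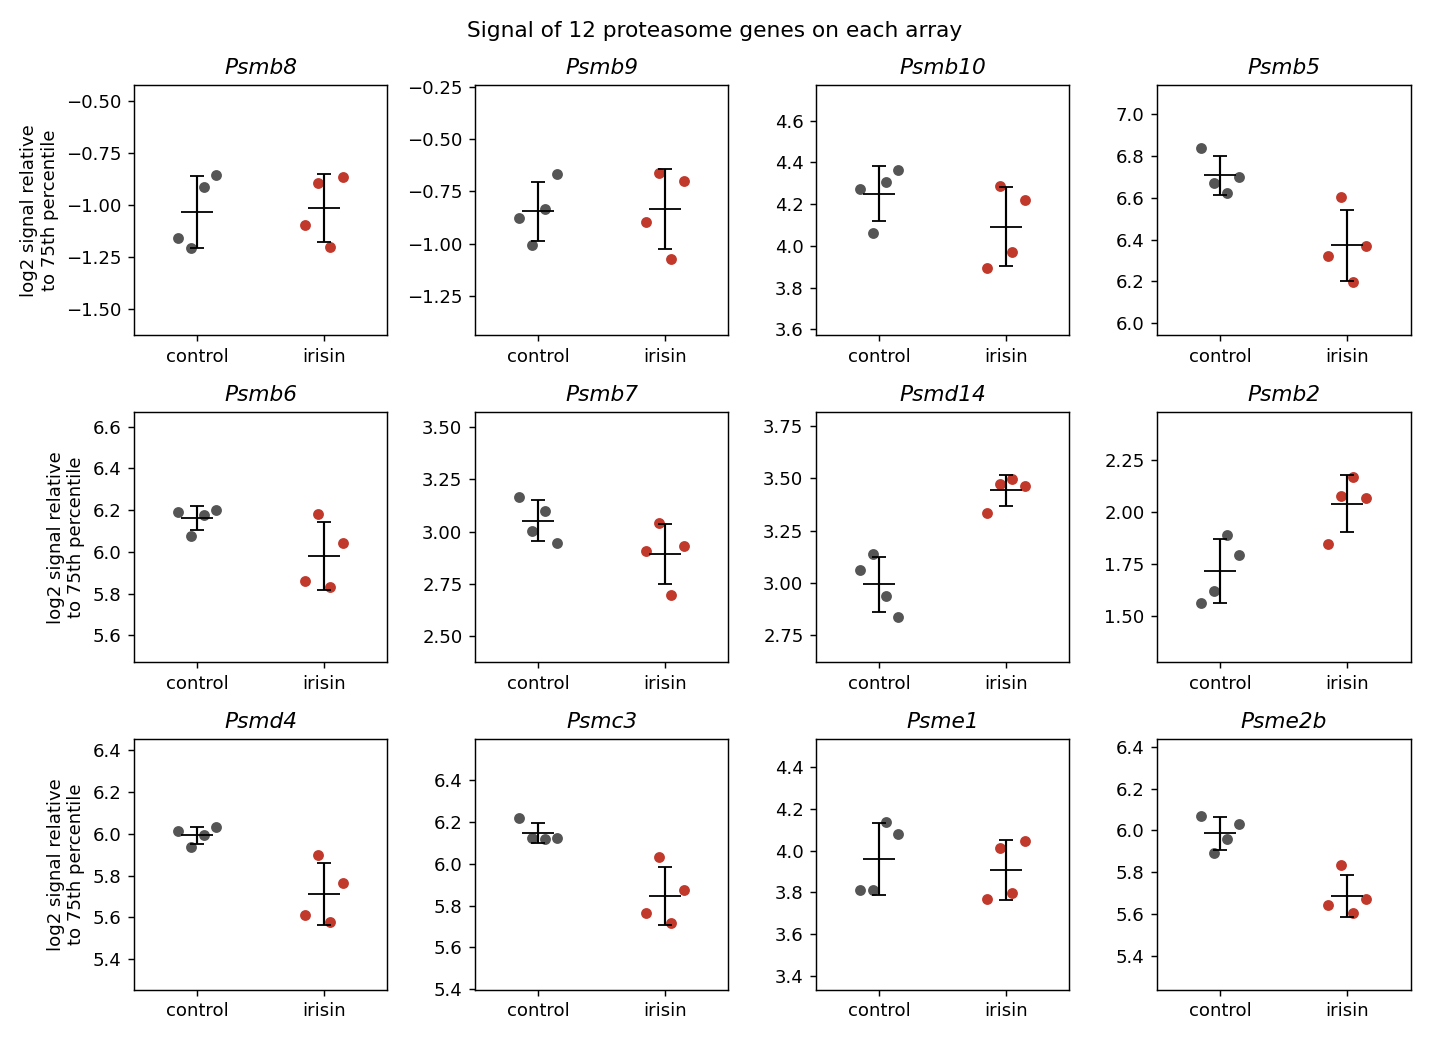
Log2 signal relative to the 75th percentile on each array for 12 proteasome genes, control in grey and irisin in red, with the mean and the SD of 4 arrays as bars. The panels have axes of equal length placed at different levels, Psmd14 lies higher on every irisin array, and Psmb8 and Psmb9 overlap fully.

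With the adjusted p alone and no fold threshold, 2 proteasome genes were higher and 4 were lower with irisin in limma, beside 2.65% and 17.9% of all tested genes. The highest was Psmd14, the metalloprotease of the cap lid that cuts ubiquitin chains from substrates. Its levels were 3.06, 3.14, 2.93 and 2.84 on the control arrays and 3.34, 3.47, 3.50 and 3.47 on the irisin arrays. The lowest irisin array lay above the highest control array, and the change was 0.45 ± 0.09 (SE, 95% interval 0.25 to 0.65, adjusted p = 0.00378 from limma). With each array left out in turn the change lay between 0.40 and 0.50 with an adjusted p between 0.00462 and 0.0144. Quantile normalization gave 0.50, cyclic loess 0.53 and normexp background correction 0.47. Over all alternatives its adjusted p from limma or the methods' ANOVA was at most 0.0151. The change passed 1.5-fold only under spike-in scaling (1.03) and in the unscaled values (1.19). In these 2 settings 33.4% and 66.8% of all tested genes were up-regulated, with medians over all tested genes of 0.51 and 0.67.

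Psmb2, a beta subunit without a cutting site, was the other of the higher genes. Its levels were 1.56, 1.62, 1.89 and 1.79 in control and 1.85, 2.08, 2.17 and 2.07 with irisin. Irisin replicate 1 lay among the control arrays and the others lay above them. The change was 0.32 ± 0.10 (SE, adjusted p = 0.0445 from limma), and with each array left out it lay between 0.27 and 0.39. The adjusted p was then under 0.05 without control replicate 3 (0.0309) or irisin replicate 1 (0.0232), and over it without any of the others, up to 0.124. In the methods' ANOVA the adjusted p was 0.076. The log2 change was 0.34 with quantile normalization and 0.33 with cyclic loess.

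The lower genes beside Psmb5 were Psmc3, Psmd4 and Psme2b. Psmc3, an ATPase of the cap ring, had levels of 6.22, 6.12, 6.12 and 6.12 in control and of 5.77, 6.03, 5.72 and 5.87 with irisin, without overlap and with a change of -0.30 ± 0.09 (SE, adjusted p = 0.0315 from limma). Psmd4, a ubiquitin receptor of the cap, had levels of 6.01, 5.94, 5.99 and 6.03 in control and of 5.61, 5.90, 5.58 and 5.76 with irisin, without overlap and with a change of -0.28 ± 0.09 (SE, adjusted p = 0.0445 from limma). In both, irisin replicate 2 was the irisin array nearest to the controls. The second, dimmer probe of Psmc3 had a change of -0.13 (adjusted p = 0.358 from limma). Psme2b had levels of 6.07, 5.89, 5.96 and 6.03 in control and of 5.64, 5.83, 5.60 and 5.67 with irisin, again without overlap and with a change of -0.30 ± 0.08 (SE, adjusted p = 0.0245 from limma). It is a near copy of Psme2, which encodes the beta chain of the interferon-induced activator. No probe was matched to Psme2 here, and whether this probe also measures Psme2 was not tested. The second tested probe of Psme2b had a change of 0.03.

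These 4 lower values held with scaling to the median of detected probes (adjusted p of 0.0388 or less) and with normexp (0.0493 or less), but not with the normalizations that act along the signal. With cyclic loess the changes of Psmb5, Psmc3, Psmd4 and Psme2b were -0.05, -0.05, -0.04 and -0.06, and their adjusted p was 0.486 or more. With quantile normalization they were 0.02, -0.03, -0.02 and -0.04, with an adjusted p of 0.677 or more. Psmd14 and Psmb2 kept an adjusted p under 0.05 in both, of 0.00582 and 0.0341 with quantile normalization and of 0.00514 and 0.0393 with cyclic loess. With spike-in scaling the changes of Psmb5, Psmc3, Psmd4 and Psme2b lay above 0, at 0.24, 0.28, 0.29 and 0.28. The median of all tested genes was 0.51 there. In the unscaled values the 4 changes were 0.40, 0.44, 0.46 and 0.44, beside a median of 0.67 for all tested genes. Leaving out arrays moved these 4 genes too. Without irisin replicate 2 the adjusted p was 0.00551 for Psmb5, 0.00622 for Psmc3, 0.00906 for Psmd4 and 0.00768 for Psme2b. Without any other array those of Psmc3 and Psmd4 were over 0.05, while that of Psmb5 was 0.0468 without control replicate 3, and that of Psme2b was 0.0325 without control replicate 2 and 0.0479 without control replicate 3.

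The proteasome genes were bright on these arrays, and among them the change was lower at higher signal with the 75th percentile. Of the 48 genes, 23 had their probe in the brightest decile of the tested probes, where 9.04% of all tested genes lay. All 23 had a change under 0, with a median of -0.20. Of the 1294 genes of that decile 1164 also lay below 0, with a median of -0.16 over the 1294. The other 25 had a median of 0.01, with 15 above 0 and 10 below. With cyclic loess the median of the 23 was 0.01 with 14 above 0 and 9 below, and with quantile normalization it was 0.02 with 15 above and 8 below. Across the 48 genes, which share the 8 arrays and are not independent replicates, Spearman's rho between the change and the mean signal was -0.751 with the 75th percentile, -0.713 with normexp, -0.226 with cyclic loess and -0.084 with quantile normalization. With normexp 22 of the 23 brightest genes still lay below 0. Across all 14307 tested genes rho was 0.186 with the 75th percentile, of the opposite sign.

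**Figure D3:**
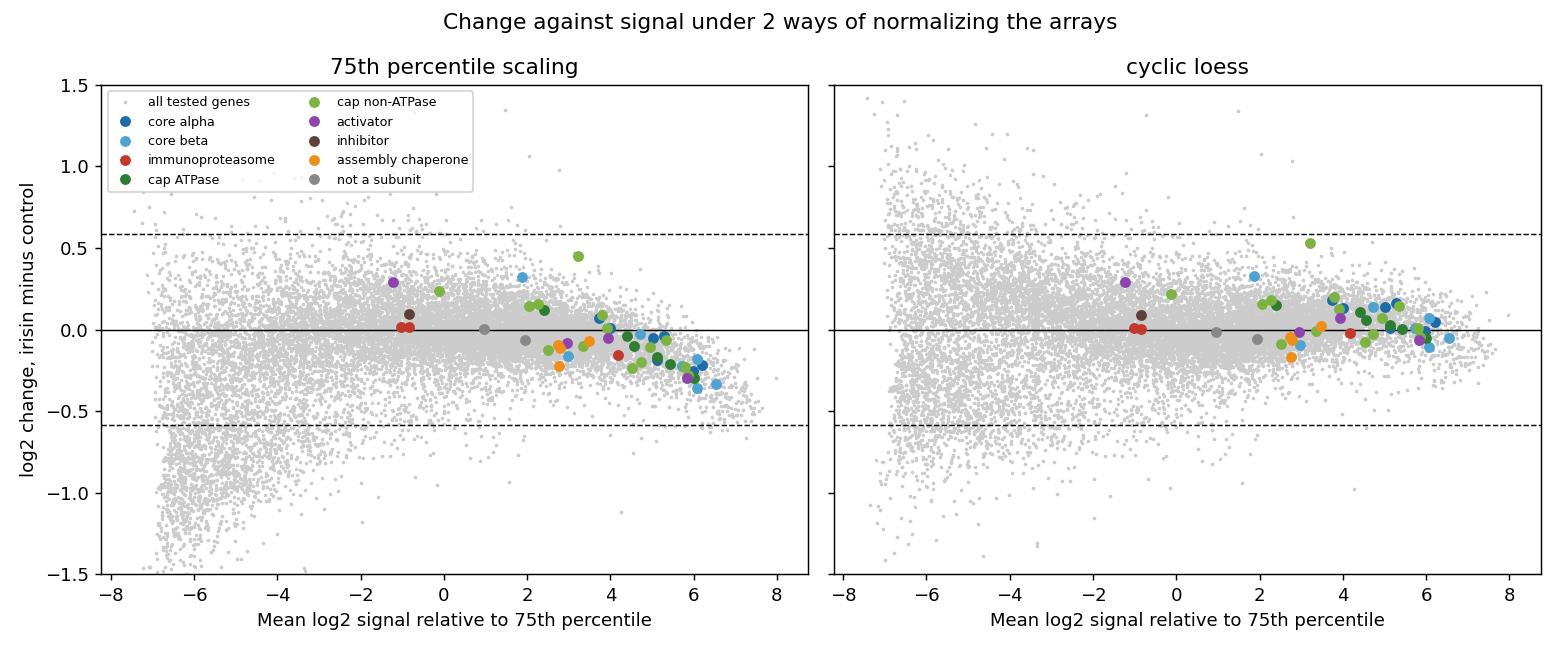
Log2 change against mean log2 signal relative to the 75th percentile, scaled to the 75th percentile on the left and by cyclic loess on the right, with all tested genes in grey, proteasome genes colored by role, 1.5-fold dashed and changes beyond 1.5 log2 units not drawn. The brightest proteasome genes lie under 0 on the left (median -0.20 of 23) and around 0 on the right (median 0.01), and Psmd14 lies above the rest in both.

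By role, the outer alpha ring had 7 tested genes with changes between -0.25 for Psma7 and 0.07 for Psma6 and a median of -0.05, with 2 above 0 and 5 below. None of them had an adjusted p under 0.05 from limma. At an unadjusted p under 0.05, 3 were lower, beside 23.6% of all tested genes. In the brightest decile, where 5 of these 7 lay, 457 of the 1294 tested genes were lower at that threshold. The 7 standard beta genes had a median of -0.18, from Psmb3 at -0.36 to Psmb2 at 0.32. Psmb3, a structural beta subunit, had levels of 6.44, 6.28, 6.13 and 6.14 in control and of 5.85, 6.18, 5.65 and 5.89 with irisin, with overlap and an adjusted p of 0.056 from limma. The 6 ATPases of the cap had a median of -0.13, from Psmc3 up to Psmc6 at 0.12, whose 95% interval was -0.28 to 0.52. The 14 Psmd genes had a median of -0.08, from Psmd4 up to Psmd14, with 6 above 0 and 8 below. They include the assembly chaperones Psmd5, Psmd9 and Psmd10, all of them above 0. These directions turned with the normalization. The alpha ring had a median of 0.10 with quantile normalization and 0.13 with cyclic loess, with 6 above 0 and 1 below in both. The ATPases had 5 above and 1 below in both, and the Psmd genes 9 and 5 in both. The standard beta genes had 5 above and 2 below with quantile normalization and 4 and 3 with cyclic loess. Both signs also occurred between probes of 1 gene. Of the 11 genes with 2 tested probes, 6 had changes of opposite sign on them, the brighter probe had the lower change in 7, and the brighter minus the dimmer change ran from -0.33 for Psme2b to 0.31 for Psme4.

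Psmd5, Psmd9 and Psmd10 carry the letter of the cap but are known as chaperones that help to assemble its base. Their changes were 0.14, 0.24 and 0.16, and none had an adjusted p under 0.05. Psmd5 had levels of 1.93, 1.97, 2.08 and 1.95 in control and of 2.16, 2.10, 2.13 and 2.10 with irisin, without overlap. The dimmer probe of Psmd10 had a change of -0.11 and that of Psmd9 one of 0.06. Including Psmd5, 2 of the 48 genes were higher and 7 were lower with no overlap between the groups, beside 4.16% and 19.7% of all tested genes. The others were Psmd14 on the higher side, and Psma3, Psmb5, Psmc1, Psmc3, Psmd4, Psme2b and Psmg2 on the lower.

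Of the activators, Psme1, the alpha chain of the interferon-induced activator, had a change of -0.05 (95% interval -0.30 to 0.19). Psme3, the nuclear activator of the same family, had a change of -0.08 (-0.30 to 0.14). Psme4, which binds the core in the nucleus without ubiquitin, had a change of 0.29 (-0.09 to 0.68), with levels of -1.25, -1.14, -1.56 and -1.56 in control and of -0.86, -1.58, -0.81 and -1.09 with irisin. Irisin replicate 2 was the lowest of these 8 values, and without it the change was 0.46 (adjusted p = 0.0243 from limma), while without any other array the adjusted p was 0.206 or more. Leaving out each array gave a lowest change of 0.20, and the dimmer probe of Psme4 had a change of -0.01. The inhibitor Psmf1 had a change of 0.10 (-0.20 to 0.39).

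The core assembly chaperones Psmg1, Psmg2, Psmg3 and Psmg4 all had changes under 0 with the 75th percentile, from -0.22 for Psmg2 to -0.07 for Psmg1. With cyclic loess 1 of the 4 lay above 0, and with spike-in scaling or no scaling all 4 did. Psmg2, which works as a pair with Psmg1, had levels of 2.82, 2.85, 2.90 and 2.91 in control and of 2.73, 2.63, 2.61 and 2.64 with irisin. The groups did not overlap, and the adjusted p was 0.0533 from limma. Psmc3ip had a change of 0.00 (0.00393) and Psme3ip1 one of -0.07.

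Within the irisin group, replicate 2 was the highest array for 31 of the 48 genes, and replicates 1 and 3 were the lowest for 22 each. Replicate 2 also had the lowest 75th percentile of the irisin arrays, 682. Without it the adjusted p of Psmb3, Psma7 and Psmb6 went under 0.05 in limma, with changes of -0.45, -0.32 and -0.25. The share of all tested genes that passed without this array is not given here, and with all arrays 17.9% were lower. With cyclic loess on all arrays the changes of Psmb3, Psma7 and Psmb6 were -0.10, -0.01 and 0.07. Within the control group the lowest array was replicate 2 for 19 genes.

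A list of 30 genes that control the proteasome, deliver substrates to it or supply ubiquitin was looked at beside the subunits, and 29 of them were tested. None was called, and with the adjusted p alone 1 was higher and 4 were lower in limma, with 2 and 7 at an unadjusted p under 0.05. Of all tested genes 2.65% and 17.9% were higher and lower at the adjusted p, and 5.94% and 23.6% at the unadjusted p, so that these counts lie near the background. The median change was -0.09. Nfe2l1 had a change of -0.03 (95% interval -0.25 to 0.19), and Nfe2l2, which acts on the same elements in oxidative stress, one of -0.01 (-0.20 to 0.18). Txnl1, a thioredoxin of the cap, was the higher gene, with a change of 0.45 (adjusted p = 0.0434 from limma).

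The lowest of the cofactors was a ubiquitin gene. Rps27a, which encodes ubiquitin fused to a ribosomal protein, had a change of -0.48 (adjusted p = 0.00276 from limma). The polyubiquitin gene Ubb had one of -0.36 (adjusted p = 0.00832 from limma). Sem1, a small protein of the cap, had a change of -0.36 (adjusted p = 0.0137 from limma). Rps27a, Ubb and Sem1 were bright, with mean control levels of 7.70, 7.40 and 6.43. Their changes with cyclic loess or quantile normalization are not given here. Pomp, the maturation factor that brings the beta subunits into the core, had levels of 4.77, 4.71, 4.59 and 4.74 in control and of 4.28, 4.41, 4.16 and 4.34 with irisin. Every irisin array lay below every control array, and the change was -0.41 ± 0.09 (SE, adjusted p = 0.00511 from limma). It was -0.28 with quantile normalization and -0.25 with cyclic loess, with an adjusted p of 0.0212 and 0.0305. With the mean over the probes of the gene it was -0.16 with an adjusted p of 0.154, and it lay above 0 under spike-in scaling (0.17) and in the unscaled values (0.33).

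How the whole group was placed depended on the scaling between arrays. With spike-in scaling 13 of the 48 genes were up-regulated and 0 down-regulated, beside 33.4% and 1.29% of all tested genes, and the median was 0.49 beside 0.51. With no scaling 30 were up-regulated and 0 down-regulated, beside 66.8% and 0.566%, and the median was 0.65 beside 0.67. In each the proteasome median lay near that of all genes. With the 75th percentile 15 of the 48 lay above 0 and 33 below, beside 5152 and 9155 of the 14307 tested genes. With quantile normalization 31 of the 48 lay above and 17 below. With cyclic loess 30 lay above and 18 below. In limma 0 of the 48 were called in either direction with quantile normalization, where 2% of all tested genes were up-regulated and 3.82% down-regulated, or with cyclic loess (2.13% and 3.43%). The count was also 0 with the median of detected probes (0.461% and 10.6%) and with normexp (0.154% and 5.51%).

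**Figure D4:**
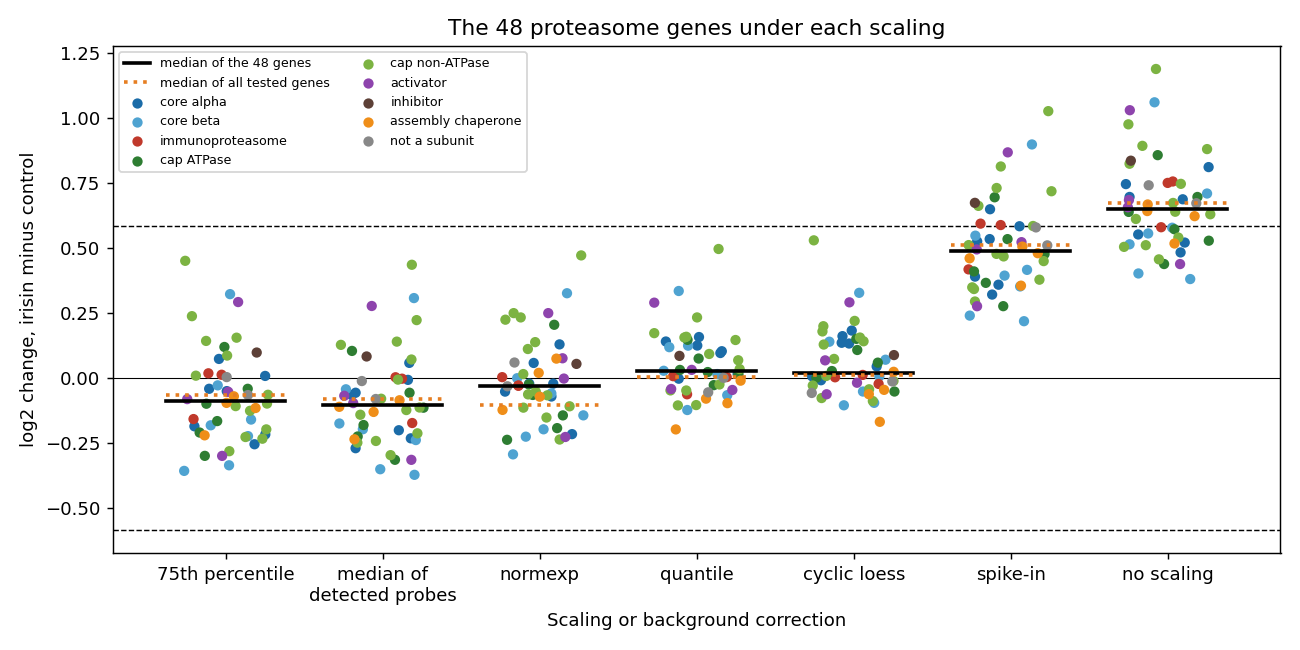
Log2 change of the 48 proteasome genes under 7 ways of scaling or correcting the arrays, colored by role, with the median of the 48 as a black line, that of all tested genes dotted and 1.5-fold dashed. The median lies between -0.10 and 0.03 except with spike-in scaling (0.49) and no scaling (0.65), and Psmd14 is the highest gene in each.

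The stretch before the transcription start was searched for motifs known from proteasome and interferon genes, and is shown for 4 genes with a match that the comparisons turned on. The stretches of Psmb8 and Psme2b held none and are not shown. The sequences are from RefSeq on GRCm38.p6 and run 5′ to 3′ on the strand of the gene, with capitals on the motif matches on either strand. Leaving out Psmc3ip and Psme3ip1, 40 genes had an entry, Psmb2 and Psmc3 not among them. Position -1 is the last base before the start, and a position is that of the first base of the match. The Psmd14 stretch (chr2:61711444-61711693, plus strand) holds 3 GC boxes and a CCAAT box. The Psmb5 stretch (chr14:54617996-54618245, minus strand) holds the core of an antioxidant response element at -47. The Psmd4 stretch (chr3:95042615-95042864, minus strand) holds a CCAAT box and the core of an interferon-stimulated response element, and that of Psmb9 (chr17:34187331-34187580, minus strand), on the side where Tap1 lies in the opposite orientation, a GC box and a CCAAT box.
Psmd14: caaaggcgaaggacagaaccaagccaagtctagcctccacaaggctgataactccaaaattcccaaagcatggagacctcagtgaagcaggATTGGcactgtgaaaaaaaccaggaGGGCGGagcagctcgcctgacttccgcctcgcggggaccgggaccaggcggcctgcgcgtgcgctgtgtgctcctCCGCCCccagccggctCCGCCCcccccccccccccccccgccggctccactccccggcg
Psmb5: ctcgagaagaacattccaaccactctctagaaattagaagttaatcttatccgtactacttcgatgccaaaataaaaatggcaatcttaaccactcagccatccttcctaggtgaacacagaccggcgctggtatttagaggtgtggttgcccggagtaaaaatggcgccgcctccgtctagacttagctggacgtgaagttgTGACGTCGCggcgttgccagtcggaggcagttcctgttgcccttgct
Psmd4: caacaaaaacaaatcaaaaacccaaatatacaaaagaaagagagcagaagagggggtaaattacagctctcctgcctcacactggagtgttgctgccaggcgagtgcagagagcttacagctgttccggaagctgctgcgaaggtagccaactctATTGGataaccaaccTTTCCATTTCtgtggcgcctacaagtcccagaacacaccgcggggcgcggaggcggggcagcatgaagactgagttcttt
Psmb9: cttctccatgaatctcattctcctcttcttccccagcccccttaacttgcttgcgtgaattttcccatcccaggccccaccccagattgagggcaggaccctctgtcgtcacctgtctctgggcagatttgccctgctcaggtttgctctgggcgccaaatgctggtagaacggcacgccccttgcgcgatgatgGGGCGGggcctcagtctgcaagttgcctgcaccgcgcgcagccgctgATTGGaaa

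Among the 40 genes with an entry, the antioxidant response element core (TGACNNNGC on either strand) was found before 5 (12.5%), Psmb5, Psmb6, Psmc6, Psmd9 and Psmd12, beside 11.5% of the stretches of all 27025 genes. The core of the interferon-stimulated response element was found before Psmb3, Psmd4 and Psmd9 (7.5%, beside 3.5%). A CCAAT box (CCAAT) was found before 14 (35%, beside 37.5%) and a GC box (GGGCGG) before 21 (52.5%, beside 35.4%). A match describes these 250 bases only. The changes of the 5 genes with the first of these motifs were -0.34 for Psmb5, -0.18 for Psmb6, 0.12 for Psmc6, 0.24 for Psmd9 and -0.11 for Psmd12.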

How the data were processed

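RNA of 4 control and 4 irisin-treated AML12 samples, grouped by their labels, was hybridized by the authors to one-color Agilent arrays. The authors deposited signal intensity on a linear scale from Agilent Feature Extraction 12 (12.0.3.1 in the file headers), with background subtracted and no normalization between arrays. The deposited value table held the same intensity, within 5e-04%.

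Spots marked as outliers were left out, and no spot was saturated. The remaining spots were averaged for each of 39429 probes, divided by the 75th percentile of the array and put on the log2 scale. Accessions were looked up in the gene table of RefSeq (GRCm38.p6), which gave 72.7% of the probes 1 symbol. The proteasome genes had 62 probes. Probes had to be well above background on each of the 4 arrays of 1 group or both, and 24091 such probes entered the test, lmFit and eBayes of limma 3.58.1 in R 4.3.3, with Benjamini-Hochberg adjustment over all of them. The brightest tested probe stood for its gene. The fit was tested on simulated data. For ratios, all 70 assignments of the arrays were enumerated in an exact permutation test (two-sided). Tables and plots were made with Python 3.11.15, pandas 2.3.3 and matplotlib 3.10.9. The number of arrays limits the precision.

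The members and lists were chosen with earlier results of these data known, and 2 genes of the lists are not reported here. By rule, values were given for the immunoproteasome subunits and their counterparts, the activators, the inhibitor, Psmc3ip, the highest and lowest gene of each role, members not tested, Nfe2l1, Nfe2l2, Pomp and any called gene, and other genes were chosen after their values were seen. Alternatives were quantile normalization, cyclic loess, scaling to the median of detected probes or to 8 spike-in probes, no scaling, normexp (offset 50, on the median spot signal, without 16 spots whose local background passed 10 times the array median), the value table, other filters, marked spots kept, robust eBayes with an intensity trend, a block for the replicate number, each array left out, averaging the probes of each gene, the adjusted p alone and the methods' ANOVA. The counts without the brightest decile were added after seeing the data.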

Additional observations from a re-analysis of the deposited data

Results flagged for a closer look

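Among 70 sets of 4 values, each a gene or a median in 1 group, 3 had 1 array far from the other 3, and chance gives about 1 in 20. Psma7, a core alpha subunit, stood at 6.03 on the array of control replicate 2 and at 6.13 on the other control arrays. Psmc3 stood at 6.22 on control replicate 1 and at 6.12 on the others. The median of the 7 core alpha genes stood at 5.34 on control replicate 1 and between 5.17 and 5.19 on the others. Levels are log2 relative to the 75th percentile.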

How the results depend on the processing

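The count of proteasome genes called up was 0 and that of genes called down was 0 with quantile normalization, cyclic loess, normexp background correction, the deposited value table, scaling to detected probes' median, marked spots kept, the stricter filter on dim probes, an intensity trend, averaging the probes of each gene and each array left out in turn. Called up were 13 with spike-in scaling, 30 with no scaling and 2 with the adjusted p alone. Called down were 4 with the adjusted p alone and 1 with no filter, which was Psma8, not above background on any array. Of the 29 cofactors and 10 antigen processing genes tested, 1 was called with cyclic loess (Txnl1, change of 0.59), 14 with spike-in scaling (33.4% of all tested genes were up-regulated there), 26 with no scaling (66.8%) and 5 with the adjusted p alone. The median change of the proteasome genes was 0.026 with quantile normalization, 0.018 with cyclic loess, 0.49 with spike-in scaling, 0.65 with no scaling and 0.0094 without the brightest decile. The median minus that of all genes was 0.075 with normexp, 0.097 with no filter and, against all tested genes with that decile kept, 0.074 without the brightest decile of members, beside -0.02 in the report's setting. With no scaling the changes of Psme1 (0.69), Psme3 (0.66), Psme3ip1 (0.67), Psmg1 (0.67), Nfe2l1 (0.71) and Nfe2l2 (0.73) turned from below 0 to called up. The cause of these differences was not tested beyond the scaling itself.

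With each array left out in turn, the group difference in the log2 ratio lay between 0.27 and 0.42 for Psmb8 to Psmb5, between 0.17 and 0.24 for Psmb9 to Psmb6 and between -0.04 and 0.08 for Psmb10 to Psmb7. With the replicate block 0 proteasome genes and 0 pathway genes were called, and the adjusted p was 0.0617 for Psmb5, 0.0789 for Psmc3, 0.101 for Psmd4 and 0.0797 for Psme2b. The deviations of same-numbered arrays correlated at 0.109, -0.348, -0.125 and 0.165. For control replicates 1 and 4 the same-numbered irisin array correlated best, and for control replicates 2 and 3 another did. So few correlations cannot decide whether the numbers pair the samples.

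Slide and scan cannot be told apart from treatment in any of these settings. The median standard error of 0.09 for the change of a proteasome gene measures the spread between the 4 arrays of a group only.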
